A study of Homo sapiens with 24 samples.

Results

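Transcripts of a HAP1 line named for the loss of HRI, the heme-regulated inhibitor kinase encoded by EIF2AK1, were compared with those of the parental line: 5 arrays of the ΔHRI line were set against 5 of the parental line. The 10 arrays were chosen by their titles, HRI or PAR, out of 24 arrays in all. Every array measured RNA of HAP1 cells, a near-haploid human line derived from the leukaemia line KBM-7, grown in the same medium and bought from one supplier. ΔHRI cells had 2 arrays without drug (lettered A and B), 2 after lomustine at 200 µM for 2 h (A and B), and 1 after the treatment titled SA100 for 2 h. Parental cells had the same 5 arrays: 2 without drug, 2 with lomustine and 1 with SA100. Lomustine is an alkylating and crosslinking chemotherapy drug. The SA100 arrays were read from their titles as sodium arsenite at 100 µM, an inducer of oxidative and protein-folding stress, although their agent field names lomustine. The other 14 arrays came from HAP1 lines named S51A, GCN2, PKR and PERK under the same treatments. The submitters state that the mutation of the ΔHRI line was sequenced. The kind of mutation and the number of clones behind a line are not given in the sources used here. Nor is it stated whether A and B were separate cultures, so p-values measure the spread between these arrays, which may be technical.

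HRI is 1 of 4 kinases that phosphorylate the translation initiation factor eIF2 on its alpha subunit. The others are GCN2, PKR and PERK, and each answers a different stress: HRI is activated by lack of heme, by arsenite and by trouble in mitochondria. Phosphorylated eIF2-alpha slows translation of most mRNAs while favouring a few, above all that of the transcription factor ATF4, which switches on genes of amino acid synthesis and transport. This program is called the integrated stress response. Arsenite is known to induce stress granules, cytoplasmic bodies of stalled mRNA, through HRI.

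All values are levels on the log2 scale, so a difference of 1 is a doubling of signal. Array medians lay between 2.34 and 2.58, and levels near or below 2.42, the median of all values in the table, are called low here, since no detection calls were used. The 5 ΔHRI arrays did not form 1 tight set. ΔHRI no drug A was most like ΔHRI lomustine B over all genes tested (r = 0.982) and ΔHRI no drug B most like ΔHRI lomustine A (r = 0.984), while the pairs within a treatment reached 0.968. Against the median of all 24 arrays, 2.90% of probe sets lay more than 1 log2 unit away on ΔHRI no drug A and 2.73% on ΔHRI lomustine B, and 0.98% to 1.19% on the other ΔHRI arrays. Parental arrays ranged from 0.96% to 3.16%, the highest being lomustine A. Markers of other tissues were checked as well: of the 12 blood, 11 epithelial, 7 fibroblast or mesenchymal and 8 neural markers tested, 0 passed the line test. Median levels of these lists on the ΔHRI arrays were 2.55, 2.57, 2.75 and 2.98. Members at higher levels included VIM, a filament protein of mesenchymal and many cultured cells, at 5.23 in ΔHRI cells and 5.35 in parental cells, SOX2, a neural and stem-cell factor, at 6.39 in ΔHRI cells and 5.85 in parental cells, and CORO1A, an actin regulator of blood cells, at 5.66 in ΔHRI cells and 5.69 in parental cells.

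EIF2AK1 transcript itself did not separate the lines. It read 7.49 and 7.80 without drug, 7.84 and 7.60 with lomustine and 7.79 with SA100 in ΔHRI cells. In parental cells the values were 7.86 and 7.94 without drug, 7.51 and 7.96 with lomustine and 7.40 with SA100. The groups overlap, and the difference over the arms was -0.03 (SE 0.153, limma adjusted p = 0.996). The position of the probes relative to the mutation is not known here, so this probe set does not check the label. The 10 genes measured closest to EIF2AK1 on chromosome 7, 5 on each side, differed by -0.17 to 0.07, and 0 passed the test. The other kinases differed by 0.26 (EIF2AK2, which encodes PKR), 0.09 (EIF2AK3, PERK) and 0.12 (EIF2AK4, GCN2), and EIF2S1, which encodes eIF2-alpha, by 0.16; 0 of these 4 passed the test. None of them therefore showed a called change in the ΔHRI line. Of the 21 tested genes of the eIF2 phosphorylation pathway, 0 passed, and their median difference was 0.06 against -0.02 over all genes.

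The main question was which transcripts differed between ΔHRI and parental cells whatever the treatment. Of 17339 genes tested with arm as a block (limma, 6 residual degrees of freedom), 3 were higher in ΔHRI cells (0.0173%) and 2 lower (0.0115%), or 5 in all (0.0288%). The higher genes were PPIAP46, SERPINB9 and MME, and the lower ones FASTKD2 and GRIK2. In each of the 5, all ΔHRI arrays lay on 1 side of all parental arrays. Over all genes tested, 607 (3.50%) did not overlap between the lines within any treatment, 262 of them higher (1.51%) and 345 lower (1.99%). With 1 or 2 arrays per group, genes also separate in this way without a line difference. That chance share was not computed, so these genes are not calls. If no gene differed, a share of about 0.05 would have an unadjusted p under 0.05. Here 955 genes (5.51%) did, 411 higher (2.37%) and 544 lower (3.14%). Quantile normalization of the table again turned that split: 59.1% of such genes were then higher, against 43.0% in the table as deposited, so the balance of directions among them depends on scaling.

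PPIAP46 had the largest difference of the called genes. It is a pseudogene of PPIA, the gene of cyclophilin A, and lies on chromosome 15; its near-identical copies may share signal on the array. Its level was 7.14 and 6.45 without drug, 6.72 and 7.06 with lomustine and 6.68 with SA100 in ΔHRI cells. In parental cells it was 5.14 and 4.47 without drug, 3.86 and 4.22 with lomustine and 5.26 with SA100. The lowest ΔHRI array stood more than 1 unit above the highest parental array. The difference was 2.22 (SE 0.247, adjusted p = 0.0127), or 4.65-fold.

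SERPINB9 encodes an inhibitor of granzyme B, the killing enzyme of cytotoxic lymphocytes, and lies on chromosome 6. ΔHRI cells had 7.38 and 7.51 without drug, 6.68 and 7.25 with lomustine and 8.09 with SA100, and parental cells 6.56 and 6.23, 4.89 and 5.38, and 5.97 in the same order. Within each treatment the ΔHRI arrays were higher, and in both lines the lomustine arrays were the lowest. The difference was 1.57 (SE 0.205, adjusted p = 0.0421). This call was lost when all 24 arrays set the spread (adjusted p = 0.147).

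MME encodes neprilysin, a membrane metallopeptidase also known as the leukaemia antigen CD10, and lies on chromosome 3. Its ΔHRI levels were 6.24 and 6.03 without drug, 5.91 and 5.91 with lomustine and 6.70 with SA100. Its parental levels were 5.18 and 4.66, 4.45 and 4.72, and 5.17. The gap between the lines was nearly even across the arms, at 1.22, 1.33 and 1.53. Over the arms it was 1.32 (SE 0.140, adjusted p = 0.0120).

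FASTKD2, a mitochondrial RNA-binding protein needed for assembly of the mitochondrial ribosome, lies on chromosome 2 and had the larger of the 2 called falls. ΔHRI arrays read 1.77 and 1.76 without drug, 1.65 and 2.02 with lomustine and 1.73 with SA100. Parental arrays read 4.69 and 4.24, 3.08 and 3.95, and 3.74. All 5 ΔHRI values were below the median of all values, so the size of the fall is poorly fixed. As measured it was -2.15 (SE 0.226, adjusted p = 0.0120). The probe set was also low in the GCN2 line, with a mean of 1.96 ± 0.31 (SD, n = 3), and there too the difference from the parental line passed the 24-array test (adjusted p = 0.0208).

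GRIK2 encodes a subunit of the kainate type of glutamate receptor and lies on chromosome 6. It read 4.22 and 4.24 without drug, 4.53 and 4.28 with lomustine and 5.12 with SA100 in ΔHRI cells, against 6.24 and 5.85, 5.39 and 5.67, and 5.93 in parental cells. The difference was widest without drug (-1.82) and least with SA100 (-0.81), and over the arms -1.34 (SE 0.179, adjusted p = 0.0421). S51A cells had a similarly low mean, 4.51 ± 0.94 (SD, n = 5). Each of the 5 called genes is measured by 1 probe set. Of the 10 measured genes nearest to each of them, 0 lay apart from the parental arrays in the same direction.

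**Figure D1:**
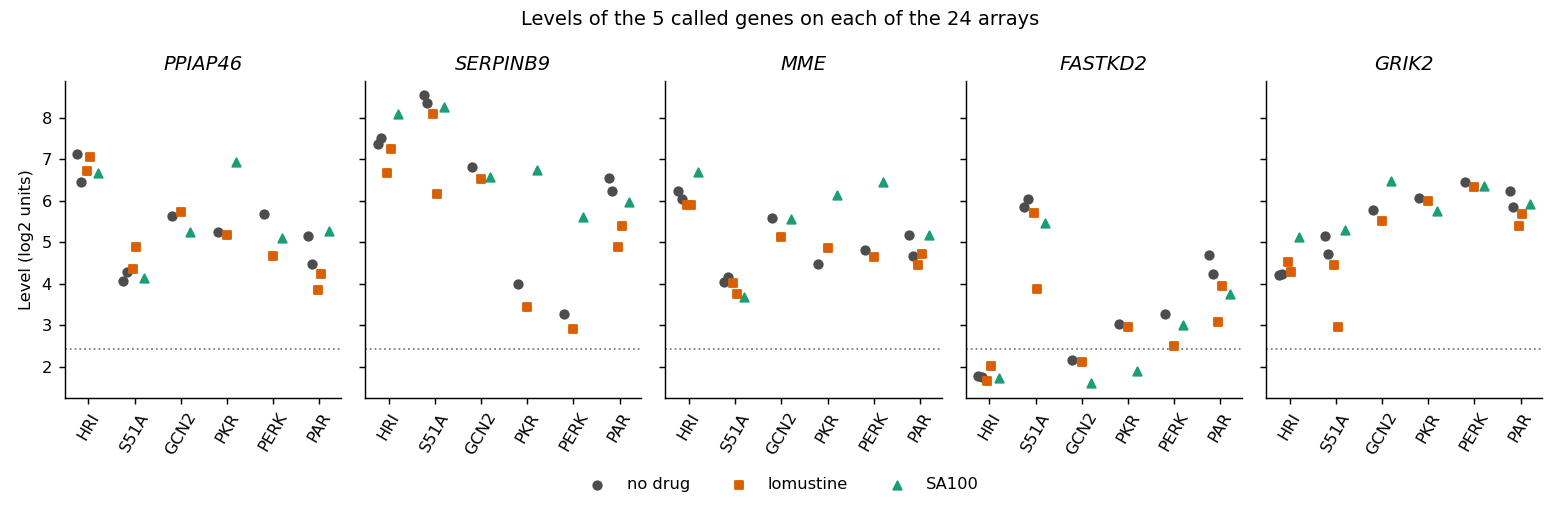
Log2 level of the 5 called genes (vertical axis) on each of the 24 arrays, by line (horizontal axis) and treatment (marker); the dotted line is the median of all values, 2.42. The 5 ΔHRI arrays lie wholly above the 5 PAR arrays for PPIAP46, SERPINB9 and MME and wholly below them for FASTKD2 and GRIK2.

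These calls rest on few arrays. Without 1 of PAR no drug B, HRI no drug A, PAR lomustine B or HRI lomustine A, 0 genes passed the threshold. Without HRI lomustine B, PAR SA100 or HRI SA100, 1 gene passed. The direction of the 5 genes held in each of the 25 alternatives run, with PPIAP46 between 1.80 and 2.42, SERPINB9 between 1.41 and 1.92, MME between 1.26 and 1.42, FASTKD2 between -2.47 and -1.79, and GRIK2 between -1.48 and -1.03. PPIAP46 stayed past the threshold in 17 of the 25, FASTKD2 in 16, MME in 14, GRIK2 in 6 and SERPINB9 in 5. The 25 are not independent checks. Fits on all 24 arrays, with a replicate block, a trended robust prior or no term for arm leave the difference itself unchanged. They could therefore not alter its direction. Leaving out PAR SA100, HRI SA100 or the whole SA100 arm gives the same fit.

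When all 24 arrays shared the estimate of the spread (16 residual degrees of freedom, in place of 6), the same contrast called 15 genes higher (0.0865%) and 10 lower (0.0577%). Of the 5 genes above, all but SERPINB9 were among them. The genes added by this fit are named here after their values were seen. In all 25, the ΔHRI and parental arrays did not overlap within any treatment. Without S51A lomustine B, the array furthest from the rest of the series, the fit called 49 higher and 40 lower.

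Of the genes added on the higher side, TERC, the RNA template of telomerase, read 7.65 and 7.77 without drug, 7.90 and 7.48 with lomustine and 7.14 with SA100 in ΔHRI cells. Parental cells had 6.71 and 5.15, 4.81 and 4.98, and 6.55. ΔHRI arrays were thus even while parental arrays were spread over nearly 2 units. The difference was 1.95 (SE 0.336, adjusted p = 0.0133). S51A cells were as high, with a TERC mean of 7.89 against 7.59 in ΔHRI cells. LRRC31, which lies near TERC on chromosome 3, was higher by 1.16 (SE 0.169, adjusted p = 0.0036). Its parental mean was low, 2.27, with 4 of 5 parental arrays below 2.42, so the size is poorly fixed. The 10 measured genes nearest to TERC had a median difference of 0.29, with 8 above 0. Those nearest to LRRC31 had 0.24, with 9 above 0, and each set includes the other gene.

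FZD10, a receptor for Wnt signals, averaged 3.87 ± 0.56 in ΔHRI cells and 2.64 ± 0.34 in parental cells (SD, n = 5 each), a difference of 1.24 in that fit (adjusted p = 0.0036). SFRP1, a secreted antagonist of Wnt signals, averaged 4.87 and 3.77 (difference 1.10, adjusted p = 0.03). NKX2-1, a transcription factor of lung and thyroid, averaged 4.24 and 3.23 (difference 1.01, adjusted p = 0.0036). A receptor and an antagonist of 1 pathway were therefore both higher, but SFRP1 also averaged 4.97 in PERK cells and 4.60 in PKR cells. Among the 53 tested ligands and receptors of development, these 2 Wnt genes were the only calls of the 24-array fit, and 0 passed with 10 arrays.

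SGO1, the shugoshin that protects cohesion between sister chromatids, was higher in every arm. It read 8.14 and 8.11 without drug, 7.64 and 8.17 with lomustine and 8.34 with SA100 in ΔHRI cells, against 7.23 and 7.50, 6.89 and 7.20, and 6.51 in parental cells. The difference of 1.02 (SE 0.162, adjusted p = 0.00571) was widest with SA100, at 1.83. The lists of the cell cycle held no call beside it: of 24 S phase and 22 G2 and mitosis genes tested, 0 passed, with median differences of -0.004 and 0.048. The other higher genes were TAOK3, a kinase of stress signalling (0.80), MLLT11 (0.66) and 5 genes of chromosome X, described with that chromosome.

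Of the lower genes, 2 serve amino acid supply. SLC7A5, the LAT1 importer of leucine and other large amino acids, read 8.73 and 9.20 without drug, 9.29 and 8.69 with lomustine and 8.49 with SA100 in ΔHRI cells. Parental cells had 9.44 and 9.77, 9.83 and 9.77, and 9.38. It is abundant in both lines, and the difference was -0.76 (SE 0.143, adjusted p = 0.03). The gene lies on chromosome 16, described below with its neighbours. ASS1, argininosuccinate synthase, which makes the precursor of arginine, read 4.72 and 4.91, 4.89 and 4.94, and 5.92 in ΔHRI cells, against 6.32 and 6.32, 5.53 and 6.10, and 6.50 in parental cells. Its difference was -1.08 (SE 0.183, adjusted p = 0.0115). In the opposite direction, SLC7A3, an importer of arginine and lysine encoded on chromosome X, was higher by 1.55 (SE 0.299, adjusted p = 0.0326).

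FREM2, an extracellular matrix protein of basement membranes, differed by -1.88 (SE 0.276, adjusted p = 0.0036). Its ΔHRI arrays ranged from 2.85 to 3.67 and its parental arrays from 4.03 to 6.01. NPR3, the clearance receptor of natriuretic peptides, had a difference of -1.80 (adjusted p = 0.03), from ΔHRI arrays at 2.53 to 3.09 and parental arrays at 3.18 to 5.70. In both genes every ΔHRI array was below every parental array. Smaller falls were called for SH3GL3 (-1.08), the histone gene H2BC17 (-0.82), TTYH1 (-0.71) and TRAPPC2L (-0.69), a subunit of a vesicle tethering complex.

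**Figure D2:**
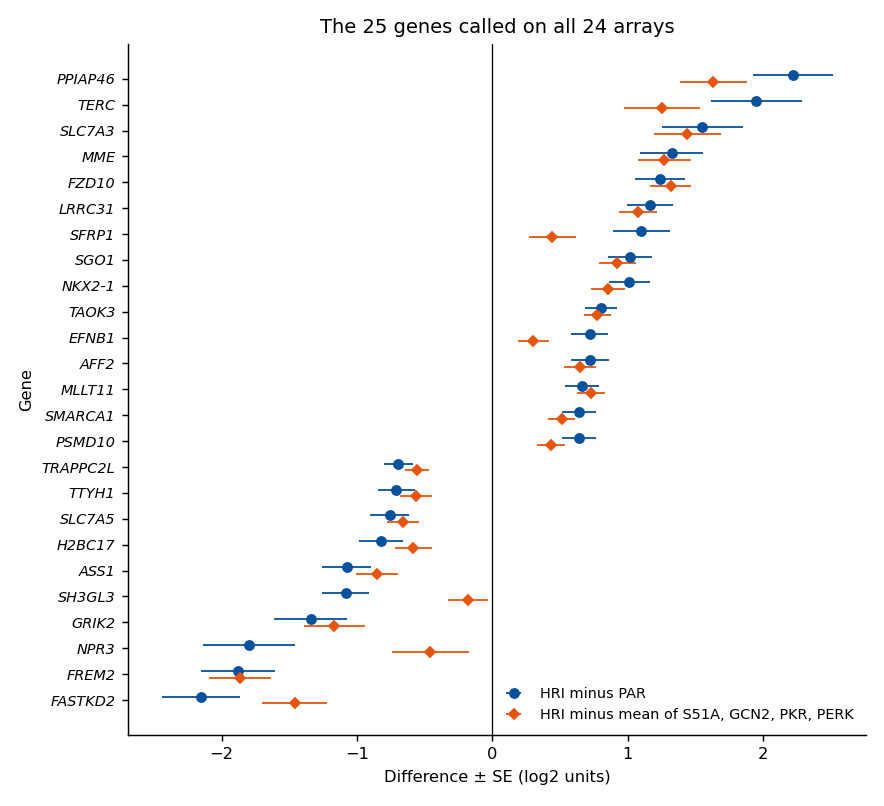
HRI minus PAR (circles) and HRI minus the mean of S51A, GCN2, PKR and PERK (diamonds), in log2 units with SE, for the 25 genes called on all 24 arrays. Both differences have the same sign in all 25, and SH3GL3, NPR3, SFRP1, EFNB1 and PSMD10 lie nearest to 0 in the second.

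The next comparison asked whether ΔHRI cells differed from the other mutant lines as well, with ΔHRI against the mean of S51A, GCN2, PKR and PERK over all 24 arrays. It uses the same ΔHRI arrays, so its values are given beside those against the parental line and are not a second measurement. It called 75 genes higher (0.433%) and 52 lower (0.300%), or 127 in all (0.732%). Of the 25 genes of the preceding fit, 20 passed here too with the same sign. The 5 that did not were SFRP1, SH3GL3, NPR3, EFNB1 and PSMD10. All 5 genes of the 10-array test passed: PPIAP46 by 1.63 (adjusted p = 0.00153), SERPINB9 by 1.70 (adjusted p = 0.0188), MME by 1.27 (adjusted p = 0.00155), FASTKD2 by -1.46 (adjusted p = 0.00351) and GRIK2 by -1.17 (adjusted p = 0.0121).

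The lines other than ΔHRI were not alike in these genes. SERPINB9 averaged 7.38 ± 0.51 in ΔHRI cells and 7.88 ± 0.97 in S51A cells (SD, n = 5 each), and 3.92 ± 1.47 in PERK cells (SD, n = 3). FASTKD2 averaged 1.79 ± 0.14 in ΔHRI cells and 5.38 ± 0.87 in S51A cells. A difference from the mean of the 4 lines is therefore not a difference from each of them.

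The largest calls of this comparison were led by EPHA3, an ephrin receptor, which was higher in ΔHRI cells than in the other 4 lines by 2.89 (adjusted p = 5.01e-07) but differed from parental cells by only 0.50 (adjusted p = 0.898 on 10 arrays). MYOM1, a protein of the sarcomere, was higher by 2.06, TMEM47, a membrane protein encoded on chromosome X, by 2.04, and NAV3, a neuron navigator gene, by 1.73. On the lower side stood FREM2 (-1.87), MPDZ, a scaffold protein with PDZ domains (-1.74), FASTKD2 (-1.46) and the zinc finger genes ZNF729 (-1.49) and ZNF93 (-1.25). Both zinc finger genes were set apart by S51A cells, which exceeded parental cells by 5.73 and 3.69. ZNF729 was low in ΔHRI cells (mean 1.65) and in parental cells (mean 1.64).

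Most targets of the integrated stress response lay lower in ΔHRI cells, by small amounts that did not pass the test on 10 arrays. Of the 40 genes listed, 37 were tested, 0 passed with 10 arrays, and 1, SLC7A5, was lower on 24 arrays. Their median difference was -0.22 against -0.02 over all genes, and 34 of 37 were below 0, against 56.1% of all genes. In 24 of 37 (64.9%) the difference was below 0 in every arm, against 17.1% of all genes. The ΔHRI and parental arrays did not overlap within any arm for 10 of the 37, all lower (27.0%), where 1.99% of all genes were lower in this way and 1.51% higher, 3.50% in all. Members of the list share regulators, so these shares describe the list and are no test of it.

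The median of the list, taken on each array as a deviation from the mean of the arm, was -0.23 to -0.03 on the 5 ΔHRI arrays and 0.004 to 0.23 on the 5 parental arrays. The groups did not overlap. By arm the median difference was -0.15 without drug, -0.38 with lomustine and -0.17 with SA100. Over all genes these medians were -0.08, 0.01 and -0.01, so part of the value without drug was shared by all genes. Other lines were lower than parental cells too: the median was -0.24 in S51A, -0.21 in PERK, -0.09 in PKR and 0.01 in GCN2, all against the same parental arrays. Against those 4 lines the ΔHRI median was -0.11, with 29 of 37 below 0. Over the alternatives run, 28 to 34 members were below 0 and the median ran from -0.31 to -0.15.

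Regulators of growth and redox state were among the members farthest below 0. DDIT4, an inhibitor of the growth kinase mTORC1, differed by -1.20 (SE 0.274, adjusted p = 0.325), and SESN2, another such inhibitor, by -0.80 (adjusted p = 0.481). CHAC1, an enzyme that degrades glutathione, differed by -0.89 (adjusted p = 0.631): by -0.23 without drug, -1.70 with lomustine and -0.61 with SA100. None of these passed the test, and the largest gaps of DDIT4 and CHAC1 were those with lomustine.

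Enzymes and carriers of amino acids formed the largest group. ASNS, asparagine synthetase, averaged 5.69 ± 0.23 in ΔHRI cells and 6.47 ± 0.61 in parental cells (SD, n = 5 each), a difference of -0.79 (adjusted p = 0.348). The serine enzymes PSPH, PHGDH and PSAT1 differed by -0.50, -0.30 and -0.29. The carriers SLC3A2, the partner chain of LAT1, and SLC7A1 differed by -0.26 and -0.28. All of these lay on the lower side without passing the test. The cystine carrier SLC7A11 was 1 of the 3 above 0, at 0.36, with 1.70 in the SA100 arm alone; the others were VLDLR, a lipoprotein receptor (0.54), and XPOT, a tRNA exporter (0.02).

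HERPUD1, a protein of degradation at the endoplasmic reticulum, and STC2, a secreted glycoprotein, had the smallest p of the list on 10 arrays. HERPUD1 differed by -0.65, -0.83 and -0.73 in the 3 arms, or -0.74 overall (SE 0.127, adjusted p = 0.173). STC2 differed by -0.61, -0.92 and -1.18, or -0.85 overall (SE 0.173, adjusted p = 0.268). Among the transcription factors of the program, ATF4 differed by -0.07 (adjusted p = 0.988), DDIT3 (CHOP) by -0.19 and ATF3 by -0.03. ATF4 is controlled mainly through its translation, which these arrays do not measure.

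**Figure D3:**
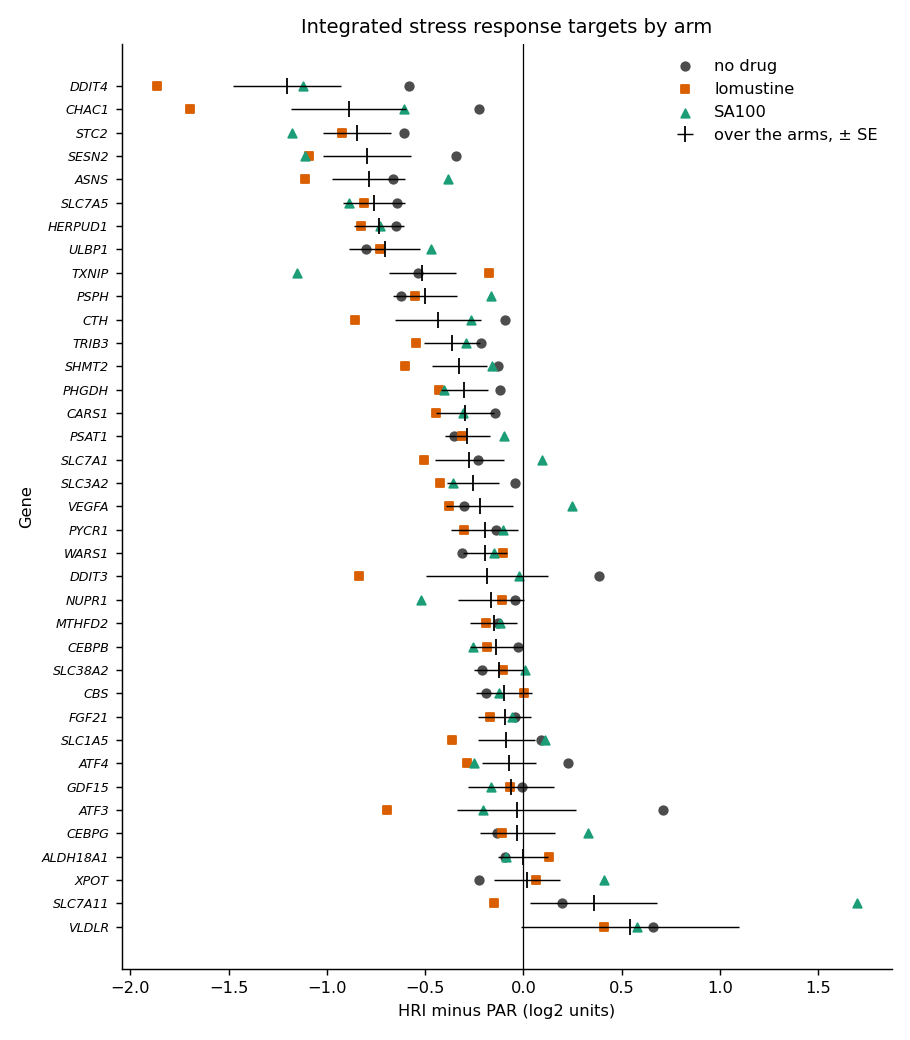
HRI minus PAR, in log2 units, of the 37 tested targets of the integrated stress response, by treatment (markers) and over the arms (black tick with SE). Of the 37, 34 lie left of 0 over the arms, and 0 passed the 10-array test.

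ATF4 pairs with C/EBP proteins on a composite element, searched here as TGATGNAA on both strands in the RefSeq promoters of GRCh38.p14, each from 250 bases before to 50 after the start. Of the 37 genes, 31 had a promoter in the table and 10 of them held the element (32.3%), against 4.46% of 27305 genes and 3.62% of 35116 promoters. The list holds known targets of this program, so its share is no result of these arrays. Of the 10 targets whose arrays did not overlap, 9 had a promoter and 3 held it: ASNS, CHAC1 and HERPUD1. That share is much like the list's own, so the element did not set these targets apart. ATF3 and CEBPG, which differed by -0.03 each, held it too. A match is only a run of letters, not evidence of binding in these cells. The promoters of the 3 genes are shown because they carry the element and lay lower in every arm, with the match in capitals; it begins 68 bases before the start in ASNS, 209 in CHAC1 and 176 in HERPUD1. They are at chr7:97872359-97872658 (minus strand), chr15:40953221-40953520 (plus strand) and chr16:56931892-56932191 (plus strand), in that order. In ASNS the capitals read the element in the direction of the gene, and in CHAC1 and HERPUD1 they read its reverse complement.
ASNS: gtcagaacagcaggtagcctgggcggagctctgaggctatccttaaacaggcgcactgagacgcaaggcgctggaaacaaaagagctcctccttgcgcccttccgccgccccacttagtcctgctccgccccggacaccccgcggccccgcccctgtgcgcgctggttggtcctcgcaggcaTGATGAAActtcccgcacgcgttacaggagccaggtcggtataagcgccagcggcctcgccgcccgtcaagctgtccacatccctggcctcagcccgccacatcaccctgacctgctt
CHAC1: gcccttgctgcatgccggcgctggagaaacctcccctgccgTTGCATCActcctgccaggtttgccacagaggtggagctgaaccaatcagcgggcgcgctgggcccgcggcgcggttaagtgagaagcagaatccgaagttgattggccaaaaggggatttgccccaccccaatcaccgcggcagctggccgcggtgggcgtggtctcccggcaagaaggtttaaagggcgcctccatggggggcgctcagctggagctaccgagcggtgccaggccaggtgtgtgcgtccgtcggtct
HERPUD1: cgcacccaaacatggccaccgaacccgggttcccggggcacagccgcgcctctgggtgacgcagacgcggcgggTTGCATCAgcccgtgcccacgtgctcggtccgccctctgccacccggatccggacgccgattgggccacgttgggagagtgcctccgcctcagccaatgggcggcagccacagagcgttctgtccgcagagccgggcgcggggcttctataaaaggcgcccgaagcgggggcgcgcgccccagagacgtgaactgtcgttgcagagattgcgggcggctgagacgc

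Most genes of chromosome X lay higher in ΔHRI cells. Among its 599 tested genes the median difference was 0.15 and 71.8% were above 0, against 43.9% of all genes. For 94 of them (15.7%) the ΔHRI arrays were above the parental arrays in every arm without overlap, against 1.51% of all genes, and for 3 they were below. These 94 are 35.9% of the 262 genes of that kind, while chromosome X holds 3.45% of the genes tested. Genes of 1 chromosome are not independent, so these shares are a description. Of the 5 calls on 10 arrays, 0 lie there. Of the 15 higher calls on 24 arrays, 5 do: SLC7A3, EFNB1, AFF2, SMARCA1 and PSMD10.

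The shift was larger where the genes are well measured. Among the 266 genes of chromosome X with a mean level over 4, the median difference was 0.37, or 1.29-fold, and 93.2% were above 0. The 7495 genes of other chromosomes over that level had a median of -0.02, with 45.9% above 0. It also ran along the whole chromosome: split by gene order into 10 stretches of 59 or 60 genes, every stretch had a positive median, from 0.08 to 0.35. The highest stretch ran from WDR44 to PHF6. By arm the median over chromosome X was 0.12 without drug, 0.24 with lomustine and 0.10 with SA100. Over all genes it was -0.08, 0.01 and -0.01 in the same order.

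Genes of many functions took part. WDR44, a protein of endosome recycling, differed by 1.12, LAMP2, a membrane protein of lysosomes, by 0.84 (0.37, 0.92 and 1.61 in the 3 arms), and MID1, a ubiquitin ligase on microtubules, by 0.81. The copper transporter ATP7A differed by 0.74, the phosphatase OCRL by 0.70 and HPRT1, the purine salvage enzyme, by 0.68. None of these 6 passed the test alone (adjusted p from 0.261 to 0.778 on 10 arrays). The called EFNB1, an ephrin ligand, averaged 7.94 ± 0.29 in ΔHRI cells and 7.22 ± 0.34 in parental cells, and SMARCA1, a chromatin remodelling ATPase, 9.004 ± 0.17 and 8.36 ± 0.33 (SD, n = 5 each). NAP1L2, a histone chaperone, went the other way at -1.003.

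**Figure D4:**
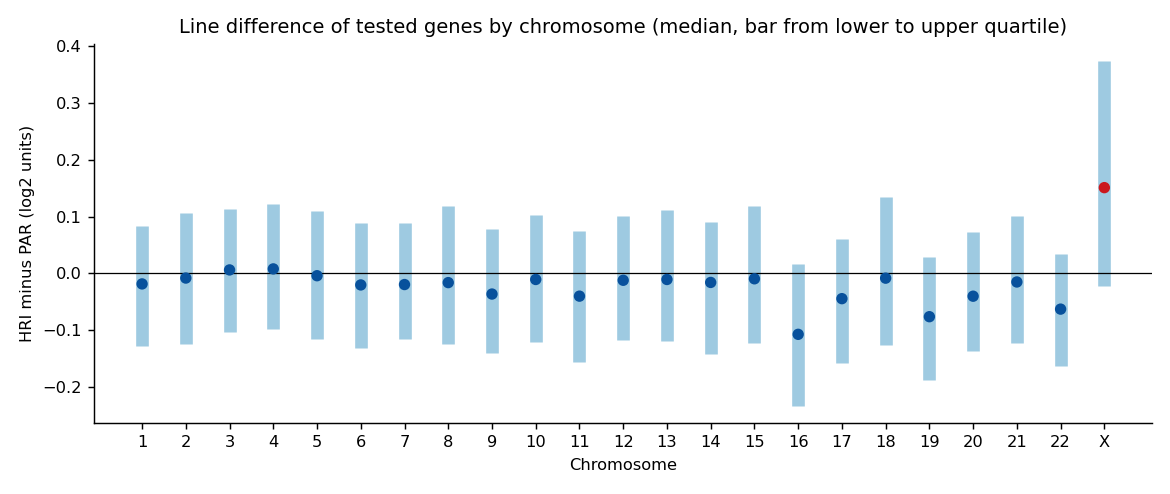
Median HRI minus PAR difference, in log2 units, of the tested genes of each chromosome on 10 arrays (points), with bars from the lower to the upper quartile. Chromosome X (red) stands at 0.15, and chromosome 16 is lowest at -0.11.

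On single arrays the median deviation of chromosome X genes from the mean of the arm was taken, less that of all genes. It was 0.05 to 0.14 in ΔHRI cells and -0.13 to -0.05 in parental cells. Here too the 2 SA100 arrays mirror each other, at 0.05 and -0.05. Of 23 chromosomes, X was the only one on which all 5 ΔHRI arrays were above all 5 parental arrays, and on none were they all below. Over all 24 arrays the deviation ranged from 0.03 to 0.13 in ΔHRI, from -0.02 to 0.05 in S51A, from -0.03 to -0.02 in GCN2, from -0.02 to 0.04 in PKR, from -0.02 to 0.02 in PERK and from -0.12 to -0.06 in PAR. The parental arrays were thus the lowest and most ΔHRI arrays the highest, with the other lines mostly between. Against those 4 lines the ΔHRI median on chromosome X was 0.07, against -0.02 for all genes, and 15 of the 75 higher calls and 2 of the 52 lower ones lie there. The median over chromosome X was 0.10 to 0.21 under the 25 alternatives run, with 63.3% to 76.3% of its genes above 0.

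**Figure D5:**
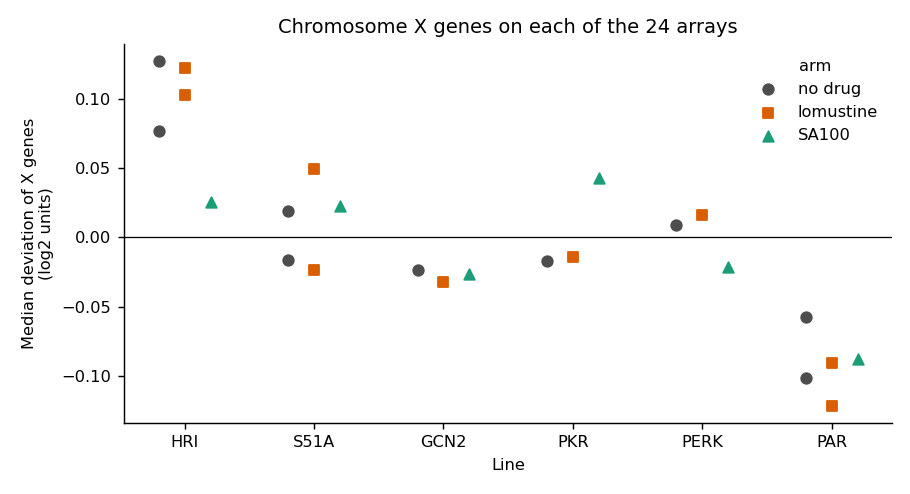
Median deviation of the tested chromosome X genes, in log2 units, on each of the 24 arrays by line (horizontal axis) and treatment (marker). Deviations are from the mean of the arm, less the median of all genes. The ΔHRI arrays lie between 0.03 and 0.13 and the PAR arrays between -0.12 and -0.06, and the arrays of the other lines between -0.03 and 0.05.

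Chromosome 16 had the lowest median, -0.11 over 780 genes, with 5.13% of them lower without overlap, against 1.99% of all genes. Chromosomes 19 and 22 followed with -0.08 and -0.06. Unlike on chromosome X, the arrays of the 2 lines overlapped there. On chromosome 16 the ΔHRI arrays ran from -0.09 to 0.04 and the parental arrays from 0.03 to 0.08. Of the 10 lower calls on 24 arrays, 2 lie on chromosome 16: SLC7A5 and TRAPPC2L. The 10 measured genes nearest to each had median differences of -0.22 and -0.23.

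The remaining lists held no called gene on 10 arrays, and their values are given as descriptions. Cholesterol synthesis had a median of -0.25, with 16 of 18 genes below 0. Its lowest members were MVD and MVK, enzymes of the mevalonate pathway, at -0.91 (adjusted p = 0.271) and -0.67 (adjusted p = 0.481). By array the list overlapped, from -0.17 to -0.04 in ΔHRI cells and from -0.22 to 0.44 in parental cells. The 8 metallothioneins and MTF1 targets, which bind and answer to metals, were all below 0 over the arms, with a median of -0.23. Only 3 of them were below 0 in every arm. By arm the median was -0.23 without drug, -0.14 with lomustine and -0.79 with SA100, which has 1 array per line. Of these 8 genes, 6 lie on chromosome 16. Their arrays did not overlap, at -0.39 to -0.06 in ΔHRI cells and -0.04 to 0.39 in parental cells, but against the other 4 lines the median was -0.01.

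Genes of heme and iron handling bear on the signal that HRI is known to sense. The 24 tested had a median of 0.07, with 15 above 0. By array, less the median of all genes, they lay at 0.01 to 0.15 in ΔHRI cells and -0.11 to -0.003 in parental cells. These values did not overlap, but the gap was narrow, from -0.003 to 0.006. The 2 SA100 arrays again mirror each other, at 0.02 and -0.02. The median difference was -0.08 without drug, 0.09 with lomustine and 0.03 with SA100. Over all genes it was -0.08, 0.01 and -0.01 in the same order, so the list did not differ from all genes without drug by this measure. BLVRB, a biliverdin reductase, differed by 0.38 (adjusted p = 0.629) and FLVCR2, a carrier of the FLVCR family, by -0.42 (adjusted p = 0.813). The 13 globins and erythroid genes had a median of 0.06 and a median ΔHRI level of 2.61.

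The median difference of immediate-early genes was -0.14 over 36 genes: JUND differed by -0.92 (adjusted p = 0.312) and EGR1, the immediate-early factor that the title of the series names, by -0.73 (SE 0.252, adjusted p = 0.707). That of NRF2 targets of the oxidative stress response was 0.09 over 24 genes. Among these NQO1, a quinone reductase, averaged 7.39 ± 0.13 in ΔHRI cells and 6.25 ± 0.64 in parental cells (SD, n = 5 each). Its difference of 1.14 did not pass (adjusted p = 0.293), though it did against the other 4 lines, at 1.18 (adjusted p = 0.0133). The medians were -0.01 for heat shock genes, -0.11 for p53 targets, -0.17 for interferon response genes and 0.05 for the unfolded protein response. They were -0.01 for stress granule components, 0.02 for apoptosis genes and -0.02 for mitochondrial chaperones and proteases. Medians by arm differed more. With SA100, on 1 array per line, NRF2 targets had 0.37, heat shock genes 0.23 and the unfolded protein response 0.22. Interferon response genes had -0.14, and the other lists of this paragraph -0.02 to 0.16. Without drug the lists first named had -0.01, -0.075, -0.09 and -0.12 in that order. All genes had -0.01 with SA100 and -0.08 without drug.

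Lists of cell identity were also near 0 over the arms. Cell adhesion and matrix genes had a median of 0.03, clustered protocadherins -0.12, zinc finger genes of 19p12 0.07, cancer-testis genes 0.02, HOX genes -0.02, imprinted genes 0.02, ribosomal proteins -0.03 and developmental ligands and receptors -0.05. Single members stood out without passing the 10-array test. DAZL, a germ-cell RNA-binding protein, differed by 1.54 (adjusted p = 0.318). HOXD13, a homeobox gene of limb development, differed by -1.43 (adjusted p = 0.373). That fall was not particular to ΔHRI cells. HOXD13 differed from parental cells by -1.23 in GCN2, -1.26 in PKR and -1.57 in PERK cells, and by 1.26 in S51A cells. The integrin chain ITGA4 differed by 0.68 (adjusted p = 0.53) and passed against the other 4 lines, at 0.97 (adjusted p = 0.0435). The medians of the blood, epithelial, fibroblast and neural markers were -0.01, 0.03, -0.02 and -0.07.

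The last comparison asked whether the line difference depended on the treatment. For lomustine against no drug, 0 of 17339 genes passed the interaction test in limma (0%), and 219 (1.26%) had an unadjusted p under 0.05. For SA100 against no drug, 0 passed (0%) and 716 (4.13%) had an unadjusted p under 0.05. The median SE of these interactions was 0.374, against 0.161 for the difference over the arms, so only large changes could pass. SA100 had 1 array per line, assumed to vary like the duplicated groups. The interaction of EGR1 was -0.63 (SE 0.550) with lomustine and -1.04 (SE 0.673) with SA100, each with an adjusted p of 1.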

How the data were processed

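Levels of 53617 probe sets were measured on 24 Affymetrix arrays. The deposited values are log2 levels, which the authors made with RMA and affy, per the submitters' processing notes; versions, filters and a genome build are not given in the sources used here. The RMA steps include quantile normalization, which reduces a shift shared by most genes. The deposited values were still not fully level. Array medians ran from 2.34 to 2.58, and the median HRI minus PAR difference over all genes was -0.08 without drug.

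Probe sets were joined to symbols with the array's annotation. Of 25713 annotated probe sets, 23558 had 1 symbol, 2155 had several and were left out, and 27904 probe sets had none. This gave 22109 genes, of which 20894 matched a RefSeq entry. For 618 genes with several probe sets, the one with the highest mean was used. Genes whose level was 2.42 (the median over the whole table) or more on 2 or more of the 24 arrays entered the tests, 17339 in number, and 4770 did not. Tests used R 4.3.3 and limma 3.58.1, and were two-sided; p-values were adjusted across these genes by Benjamini-Hochberg and called below 0.05. The difference between lines was fitted on 10 arrays with arm as a block. Group means gave the interactions, with 4 residual degrees of freedom, and line and arm terms over 24 arrays gave the comparison with the other mutant lines. The scripts were tested on simulated data. Arrays give no read depth, and their number limits the precision.

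The arrays compared, the lists and the rules were chosen with earlier results of these data known. The genes named were the eIF2-alpha kinases, EIF2S1, ATF4 and EGR1, up to 15 called genes each way with no overlap between the lines in any arm, up to 4 called or else 2 leading members of each list, and up to 5 in each direction from the other comparisons. The arms differ in treatment and are the only known structure among the arrays; no batch is given. Alternatives covered the arrays and arms in the fit, a replicate block, filters, probe set averages, scaling and the variance prior.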

Additional observations from a re-analysis of the deposited data

Results flagged for a closer look

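The labels put 1 or 2 arrays in each group of line and treatment, so no group was large enough to look for a single array far from the rest. In 15 of the 91 named genes, every ΔHRI array lay above every parental array in 1 treatment and below in another. SA100 has 1 array in each line, so the lines always lie apart there and no spread could be measured. The share of such reversals among all genes tested was not counted, so this number is no sign of an excess. In these 15 genes 0 interactions of lomustine or SA100 with no drug passed in limma (adjusted p = 1 in each), and the difference between SA100 and lomustine was not tested.

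Of these, 2 also reversed between lomustine and no drug. ATF4, the transcription factor at the head of the integrated stress response, differed by -0.29 in the lomustine arm and by -0.25 in the SA100 arm, against 0.23 without drug, and its interaction with lomustine was -0.51 (SE 0.303). IFITM3, an interferon-induced membrane protein, differed by -0.89 and -0.53 in these arms, against 0.08 without drug, and its interaction with lomustine was -0.97 (SE 0.332). Its mean level was low, 2.17 in ΔHRI cells and 2.60 in parental cells.

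The other reversals involved SA100. EIF2AK1, the gene of HRI, differed by 0.39 with SA100, against -0.26 without drug, and its interaction was 0.65 (SE 0.422). ITGB8, an integrin chain, differed by 0.27 with SA100, against -0.74 without drug, with an interaction of 1.01 (SE 0.351). Other genes higher with SA100 and lower without drug were ZNF429 at 0.57, VIM at 0.31, RPL12 at 0.095, HOXB9 at 0.025, PTTG1 at 0.017 and DEDD2 at 0.011. Lower with SA100 and higher without drug were EPB42 at -0.32, MAGEB3 at -0.27 and TIMM23 at -0.067. GATA1 at -0.24 and KRT14 at -0.036 with SA100 reversed only against the lomustine arm, where they differed by 0.45 and 0.30.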

How the results depend on the processing

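On 10 arrays 3 genes were higher and 2 lower. The counts were 15 and 10 on all 24 arrays, and 49 and 40 on these less S51A lomustine B, an alternative chosen after seeing the data. They were 2 and 1 with a replicate block of arm and letter, with no filter and with centred arrays, 5 and 3 after quantile normalization again, and 3 and 1 with no term for arm. They were 0 and 0 without the no drug arm, 0 and 1 without the lomustine arm, and 1 and 0 without the SA100 arm. Leaving out 1 array gave 0 to 3 higher and 0 to 3 lower. Chosen after seeing the data, leaving out HRI no drug A and HRI lomustine B gave 0 and 0, and leaving out HRI no drug B and HRI lomustine A gave 20 and 4. Interactions stayed at 0 except for 1 higher gene with lomustine without PAR no drug B (range 0 to 1) and 1 lower gene with SA100 under a trended robust prior. Against the other 4 lines, the 75 higher and 52 lower genes became 131 higher after quantile normalization again, 37 higher without S51A, 128 and 168 without S51A lomustine B (chosen after seeing the data), and 30 to 125 higher and 19 to 78 lower with 1 HRI array left out; the lowest counts came without HRI no drug A, and 30 higher also without HRI lomustine B. The cause of these moves was not tested.

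Of 1644 values for 66 single genes under 25 alternatives, 1558 kept direction and side of the threshold, 67 lost the call, 8 gained it and 11 changed sign. Some of the 25 leave the difference itself unchanged, so these values are not independent. The sign changes were in genes with differences near 0. EIF2AK1 was 0.12 without the no drug arm, 0.11 without HRI no drug A and HRI lomustine B, and -0.14 to 0.052 with 1 array left out. ATF4 was 0.068 and KRT14 -0.024 without the lomustine arm, and EIF2AK3 was -0.070 without the SA100 arm and -0.070 to 0.20 with 1 array left out. Same-lettered HRI and PAR arrays deviated together with r = 0.03 without drug and 0.12 with lomustine over genes, so the letters were not used to pair arrays between the lines. Within a line, the A minus B differences of the no drug and lomustine arms correlated with r = -0.56 in HRI and 0.33 in PAR. Levels near 2.42 limit what can be measured: 280 tested genes were below it on all 10 arrays.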

Other observations

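The ΔHRI arrays were alike across letters in single genes as well. On ΔHRI no drug A and ΔHRI lomustine B, 22 of 17339 genes (0.127%) were more than 1 log2 unit above each of the other 3 ΔHRI arrays, and 20 (0.115%) were more than 1 unit below. Other splits of the ΔHRI arrays were not counted. The genes named here were chosen after their values were seen. LIN28A, an RNA-binding protein of stem cells that blocks maturation of let-7 microRNAs, had the widest gap. It read 9.01 and 8.98 on these 2 arrays, against 2.65 on ΔHRI no drug B, 3.11 on ΔHRI lomustine A and 4.61 on ΔHRI SA100. S51A lomustine B, the array furthest from the rest, read 9.61, and the 21 remaining arrays of the series ran from 2.25 to 5.24. LIN28A thus had the largest mean difference between ΔHRI and parental cells of all genes tested, 2.71, without passing the test (SE 1.22, limma adjusted p = 0.894). PRTG, protogenin, a membrane protein of the embryo, read 7.04 and 6.43 on the 2 arrays, against 3.49, 2.995 and 3.31. POSTN, periostin of the extracellular matrix, read 3.71 and 3.87, against 1.98, 1.99 and 1.85. SLC7A3, called on 24 arrays, read 9.09 and 9.10 there, against 7.68, 7.66 and 8.05. PARP12, an interferon-induced gene, was lower, at 2.97 and 3.02 against 4.56, 4.39 and 4.40. It was nearly as low on PAR lomustine A (3.31) and S51A lomustine B (3.19), so low values were not particular to the 2 ΔHRI arrays. The differences between A and B correlated over genes with r = -0.56 between the no drug and lomustine arms of ΔHRI cells, and with 0.33 in parental cells. What separates these arrays was not tested.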
